A study of Cricetulus griseus with 8 samples.

Results

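The genes described here fold, check and dispose of proteins in the endoplasmic reticulum (ER), and signal when that work falls behind. They were chosen by name from the deposited table, with earlier results of these data known. The list holds 39 symbols for ER chaperones, unfolded protein response genes and genes of ER-associated degradation (ERAD). Of these, 37 were present among the 26776 named genes, and all 37 were among the 13494 genes that were tested, those averaging 10 or more normalized counts over the libraries. A normalized count is a gene's read count divided by 1 size factor per library. Ufd1 and Selenos were not found under those symbols. Ufd1l and Vimp, the older symbols for these genes, are in the table and are given apart from the counts.

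RNA was measured in LR73 cells, a hamster phagocyte line labelled as fibroblast and derived from Chinese hamster ovary cells. The cells were kept alone (4 libraries) or together with apoptotic Jurkat cells, a human T cell line (4 libraries). Per the labels, all LR73 cells grew in alpha-MEM with serum and antibiotics, and the Jurkat cells received 1500 mJ of UV-C and were then held for 4 h before they met the phagocytes. No genotype or other treatment is named, and a prefix (GFP) shared by all 8 column names is not explained in the labels. LR73 is 1 established line, and the design text calls the libraries biological replicates without saying how cultures were separated. The p-values therefore set group differences against the spread between these libraries, and cover no other line.

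Proteins bound for secretion enter the ER through the Sec61 channel, are folded by the Hsp70 protein BiP (Hspa5), its Hsp90 partner Grp94 (Hsp90b1), the lectin chaperones and disulfide isomerases, and are sent back to the cytosol for destruction by ERAD when they fail to fold. Unfolded protein in the lumen activates the sensors IRE1-alpha (Ern1), ATF6 and PERK (Eif2ak3). IRE1-alpha splices the mRNA of the transcription factor XBP1, cleaved ATF6 and spliced XBP1 raise the transcription of chaperone and ERAD genes, and PERK phosphorylates the translation factor eIF2-alpha, which favours translation of ATF4 and, downstream, expression of CHOP (Ddit3). A phagocyte that has taken up dying cells has to digest a load of foreign protein and lipid. Gene counts do not tell spliced from unspliced Xbp1 mRNA, and they do not show cleavage of ATF6 or phosphorylation of PERK.

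Depth ran from 22.7 to 29.7 M (mega) reads assigned to named genes. Alone library 1 stood apart: chi-square per degree of freedom between replicates was 16.6 to 30.7 for pairs that held it and 1.56 to 3.26 for the other pairs. Of 14 fibroblast markers in the table, Vim and Fn1 were abundant, while Thy1 was at 0 in every library and Col1a1 and Col1a2 did not exceed 3.80 normalized counts in any library. The summed level of these markers was 167000 to 172000 normalized counts alone and 196000 to 198000 with apoptotic cells. Vim made up most of that sum, with means of 112000 alone and 130800 with apoptotic cells. Of the 11 markers tested, 3 rose (Vim, Col6a1 and Thbs1), 1 fell (Dcn), and 4 had negative log2 fold changes. Their part in the results was not tested. T cell markers went both ways, with only those at trace level higher in the co-cultures. Summed over all 28 in the table, they stood at 1760 to 1920 normalized counts alone and 1650 to 1710 with apoptotic cells. Of these 28 markers, 22 had a mean under 10 normalized counts. The summed level of the 22 was 3.80 to 17.3 normalized counts in libraries alone and 24.2 to 29.6 in co-cultures. Among these 22, 13 had more reads in the co-cultures, 1 had fewer and 7 were at 0 throughout, Cd3d, Cd3g and Cd2 among them. Of the 6 markers that were tested, all with negative log2 fold changes, Cd28 and Themis fell. In such bulk RNA, fewer cells of a type and less RNA per cell cannot be told apart, and the part of Jurkat RNA in the values below was not tested.

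With apoptotic cells, 1 of the 37 ER genes rose and 3 fell, while 33 did not pass the threshold (limma, Benjamini-Hochberg adjusted p under 0.05 over all genes tested). Ern1, the sensor IRE1-alpha, changed by 34.9%. Herpud1, a scaffold of the ERAD ligase, changed by -23.5%, the ER J protein gene Dnajb9 by -17.5%, and Ppp1r15a, which encodes the eIF2-alpha phosphatase subunit GADD34, by -15.4%. Over all tested genes 11.7% were called, 6.36% higher and 5.31% lower, so that the 10.8% called here is close to the background. The major chaperones were among the genes that did not pass. The median log2 fold change of the 37 genes was -0.04, with a range from -0.39 to 0.43, beside 0.0015 for all genes tested.

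Without alone library 1, 36 of the genes were tested and 2 rose (Ern1 and Vcp) and 5 fell (Herpud1, Dnajb9, Ppp1r15a, Eif2ak3 and Sel1l), where 13.4% and 12.5% of all tested genes did (26.0% in either direction). The authors' deposited table gave 5 of these genes an adjusted p under 0.05, namely Herpud1, Ern1, Dnajb9, Ppp1r15a and Vcp, beside 12.2% of all genes with an adjusted p there. For 28 of the 37 genes the 95% interval of the change lay within 1.2-fold either way, a share of 75.7% beside 51.5% over all tested genes, which include more genes with few reads. Without alone library 1 that number was 33 of 36, and the share over all tested genes was 62.5%.

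**Figure D1:**
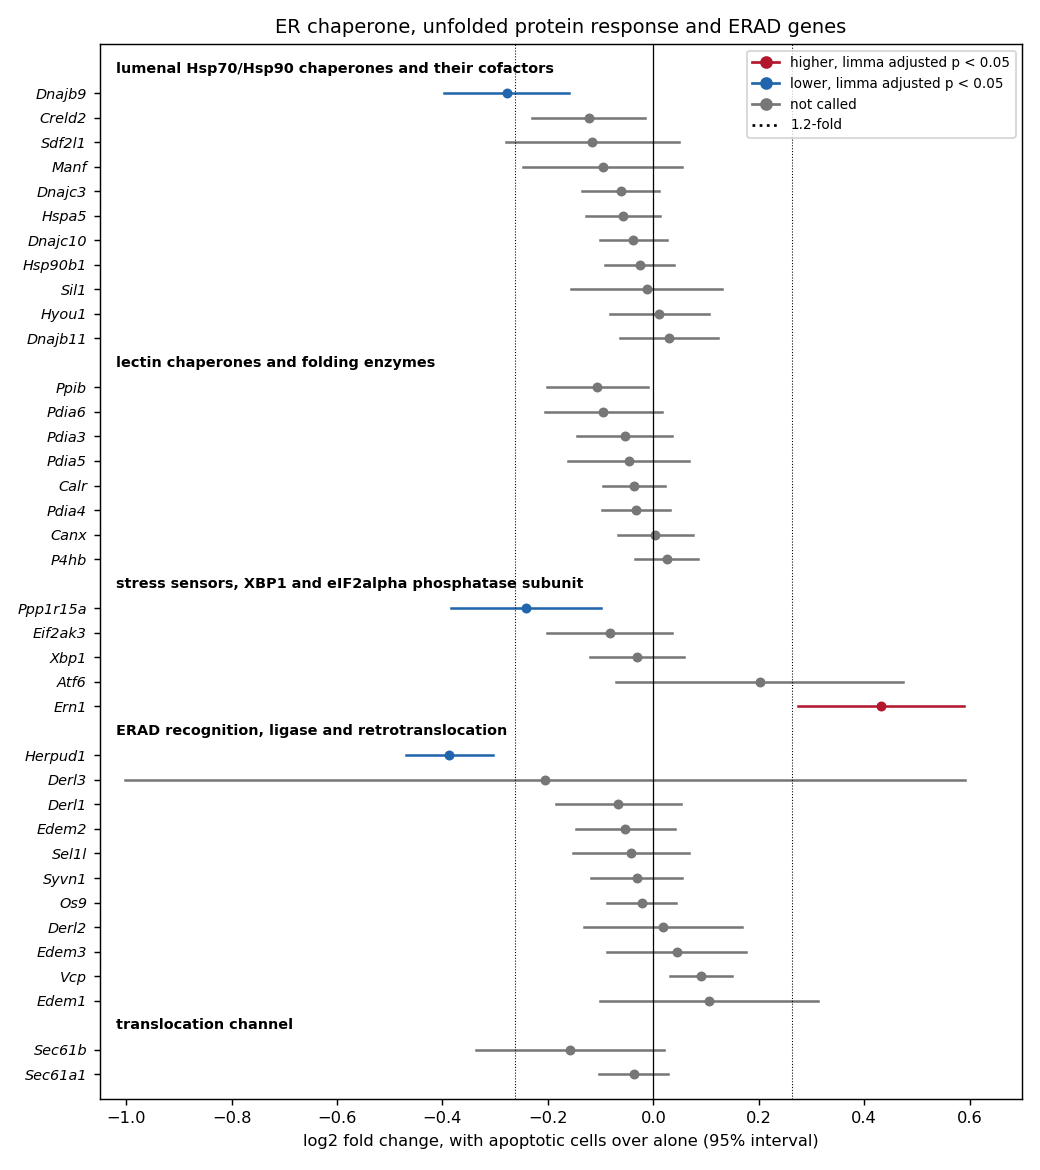
Log2 fold change with its 95% interval from limma for each of the 37 genes, grouped by role, with positive values higher with apoptotic cells and dotted lines at 1.2-fold. Ern1 (0.43) lies to the right and Herpud1 (-0.39), Dnajb9 (-0.28) and Ppp1r15a (-0.24) to the left, while most chaperone intervals are narrow and cross 0.

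Among the lumenal Hsp70 and Hsp90 chaperones and their cofactors, 1 of 11 fell and none rose. Hspa5, which encodes BiP, the Hsp70 of the ER and the usual readout of the unfolded protein response, stood at 35170, 32380, 32960 and 33050 normalized counts in alone libraries 1 to 4 and at 31940, 32010, 32250 and 32120 in co-cultures 1 to 4. Every co-culture lay below every library alone, but alone library 1 was the highest by a wide margin and the other differences were small. The log2 fold change was -0.06 (SE 0.03, 95% interval -0.13 to 0.01, limma adjusted p = 0.283), and -0.03 without alone library 1. Hsp90b1, the lumenal Hsp90, read 98380, 92400, 94430 and 94330 alone and 93510, 92200, 94370 and 92670 with apoptotic cells. These groups overlapped, with a log2 fold change of -0.03 (95% interval -0.09 to 0.04).

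Dnajb9 encodes ERdj4, a J protein that works with BiP and is a classic target of spliced XBP1. It went from 690.3, 649.5, 669.8 and 600.9 normalized counts alone to 515.5, 541.8, 540.7 and 551.8 with apoptotic cells. All co-cultures were lower than all libraries alone, and the fall was 0.28 in size on the log2 scale (mean 652.6 ± 38.3 against 537.5 ± 15.5, SD, n = 4 per group; log2 fold change -0.28, SE 0.05, limma adjusted p = 0.00866). The other J proteins did not pass: Dnajc3 (p58IPK), an inhibitor of PERK and co-chaperone of BiP, had a log2 fold change of -0.06, the ER reductase Dnajc10 -0.04 and Dnajb11 0.03. Of the alternatives run, Dnajc3 fell only under array weights (log2 fold change -0.08, limma adjusted p = 0.0371).

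Hyou1, a large Hsp70 relative that helps BiP exchange nucleotide, had means of 26600 ± 1640 and 26770 ± 188 normalized counts (log2 fold change 0.01, and -0.03 without alone library 1). Sil1, the other nucleotide exchange factor, stood at 245.8 ± 11.6 and 243.7 ± 12.8. The small secreted or lumenal proteins that are induced together with BiP were lower on average without passing the test. Creld2 had a log2 fold change of -0.12 (limma adjusted p = 0.137), Sdf2l1, a partner of ERdj proteins, -0.12 (adjusted p = 0.351) and Manf, a secreted ER stress protein that binds BiP, -0.10 (adjusted p = 0.400). Without alone library 1 the values for these genes were -0.08, -0.04 and -0.02, since that library held their highest counts (2984 for Creld2, 1721 for Sdf2l1 and 5153 for Manf).

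None of the 8 lectin chaperones and folding enzymes passed the limma threshold. In that fit 1 of them, Ppib, had an unadjusted p under 0.05, as did 26.5% of all tested genes. Over the alternatives the only call among the 8 was that of Ppib under array weights (log2 fold change -0.07, adjusted p = 0.0337). Calr, the soluble lectin chaperone calreticulin, ranged from 50390 to 51380 normalized counts alone and from 48490 to 50300 with apoptotic cells, a change of -2.55% with groups that did not overlap. Canx, its membrane-bound relative calnexin, had means of 21640 ± 741 and 21690 ± 304 (SD, n = 4 per group). For both, the 95% interval stayed within a log2 change of 0.10 (-0.10 to 0.02 for Calr and -0.07 to 0.08 for Canx).

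The disulfide isomerases showed similarly small differences. P4hb, the archetypal protein disulfide isomerase, had a log2 fold change of 0.03, Pdia3 (ERp57), the isomerase that serves the lectin chaperones, -0.05, and Pdia4 -0.03. Pdia5 and Pdia6 stood at -0.05 and -0.09, and at 0.002 and -0.04 without alone library 1. Ppib, the ER cyclophilin B that isomerizes proline bonds, went from 11560, 10020, 10420 and 10330 normalized counts alone to 9711, 9899, 9643 and 10020 with apoptotic cells. At full precision its groups did not overlap, and its log2 fold change was -0.11 (SE 0.04, limma adjusted p = 0.146).

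Among the sensors, only Ern1 passed the threshold with all libraries. Ern1 read 1014, 1318, 1220 and 1246 normalized counts alone and 1580, 1677, 1616 and 1572 with apoptotic cells. The lowest co-culture was above the highest library alone, and the mean went from 1200 ± 130 to 1611 ± 47.9 (SD, n = 4 per group; log2 fold change 0.43, SE 0.07, limma adjusted p = 0.00397). Alone library 1 held its lowest value, and without it the rise was 0.35 (SE 0.04, limma adjusted p = 1.08e-07). Ern1 is the sensor kinase and endonuclease whose substrate is Xbp1 mRNA. Xbp1 itself stood at 1420, 1500, 1583 and 1483 alone and at 1462, 1453, 1493 and 1448 in co-culture, with overlapping groups and a log2 fold change of -0.03 (95% interval -0.12 to 0.06).

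Atf6, the sensor that is cleaved in the Golgi to free a transcription factor, read 1337, 2103, 2055 and 2046 normalized counts alone and 2109, 2183, 2111 and 2127 in co-culture. The groups did not overlap, but most of the mean difference lay in alone library 1: its log2 fold change was 0.20 (SE 0.12, limma adjusted p = 0.325) with all libraries and 0.04 (SE 0.03) without it. Eif2ak3, which encodes the sensor kinase PERK, read 924.9, 1033, 1013 and 1105 alone and 981.7, 955.4, 966.1 and 937.3 in co-culture. Alone library 1 was again the lowest of its group and the only library alone below the co-cultures. The log2 fold change of -0.08 (limma adjusted p = 0.356) became -0.13 (SE 0.04, limma adjusted p = 0.0213) without that library, so that Eif2ak3 fell in that comparison and, of the other alternatives run, only under array weights (adjusted p = 0.0332).

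Ppp1r15a encodes GADD34, which directs a phosphatase to eIF2-alpha and so reverses the action of PERK. It went from 1414, 1154, 1176 and 1171 normalized counts alone to 990.6, 1048, 1053 and 1052 with apoptotic cells. The groups did not overlap, with means of 1229 ± 124 and 1036 ± 30.3 (SD, n = 4 per group; log2 fold change -0.24, SE 0.06, limma adjusted p = 0.0357). Its call was lost with the replicate block (adjusted p = 0.0816) and when alone library 3 or 4 or any 1 co-culture was left out (adjusted p = 0.0529 to 0.112). Without alone library 1, its highest value, the fall was 0.17 in size (log2 fold change -0.17, SE 0.04, limma adjusted p = 0.00141).

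**Figure D2:**
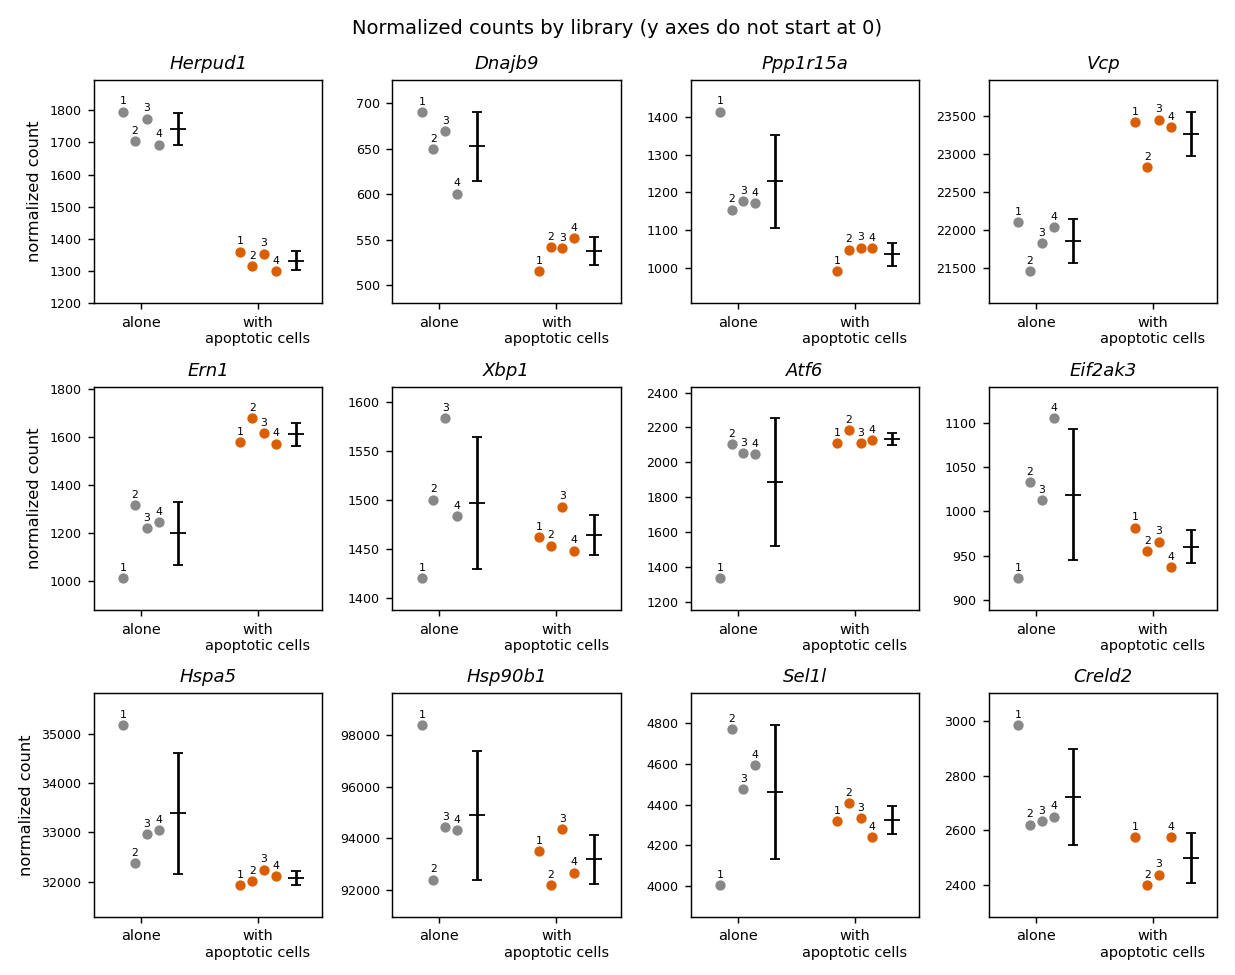
Normalized counts in each library (points, numbered by replicate) with group means and SDs (4 libraries each), for 12 of the genes, on axes that do not start at 0. Herpud1 lies between 1693 and 1796 alone and between 1299 and 1360 with apoptotic cells, Ern1 separates in the opposite direction, and alone library 1 is the lowest point of its group for Ern1, Xbp1, Atf6, Eif2ak3 and Sel1l.

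Of 11 tested ERAD genes 1 fell, Herpud1, and none rose. Herpud1 (HERP) is a membrane protein that brings the ubiquitin ligase HRD1 together with derlins, and its own gene responds to ER stress. It read 1796, 1705, 1774 and 1693 normalized counts alone and 1360, 1314, 1354 and 1299 with apoptotic cells. The groups were far apart relative to their spread (1742 ± 50.6 against 1332 ± 29.8, SD, n = 4 per group; log2 fold change -0.39, SE 0.04, limma adjusted p = 1.69e-04). Over the alternatives its log2 fold change ran from -0.40 to -0.37, and the call held in all 17.

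Vcp encodes p97, the ATPase that pulls ERAD substrates out of the membrane and that also works in many other processes. It read 22100, 21460, 21830 and 22040 normalized counts alone and 23420, 22830, 23450 and 23350 in co-culture. The groups did not overlap, but the difference of 6.43% (log2 fold change 0.09, SE 0.03, adjusted p = 0.0542 by limma) was just outside the threshold. Vcp passed by DESeq2 (adjusted p = 0.0177), with a filter at a mean of 100 (0.0412), with array weights (0.00346) and when alone library 1 was left out (0.00204), and over all alternatives the adjusted p ran from 0.00204 to 0.154. Ufd1l, which encodes a cofactor that recruits p97 to ubiquitinated substrates, stood at 1429 ± 96.6 and 1438 ± 65.4. Vimp, for a membrane selenoprotein that binds p97 and derlins, stood at 682.3 ± 59.8 and 699.3 ± 21.9, and neither was called by limma (adjusted p = 0.917 and 0.725).

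The HRD1 ligase itself (Syvn1) had means of 1660 ± 65.7 and 1624 ± 30.1 normalized counts (log2 fold change -0.03). Sel1l, its adaptor, read 4005, 4773, 4476 and 4596 alone and 4320, 4408, 4334 and 4240 in co-culture. Only alone library 1 lay below the co-cultures, and the log2 fold change of -0.04 (limma adjusted p = 0.623) became -0.09 (SE 0.03, limma adjusted p = 0.0132) without it. Os9, a lectin that hands misfolded glycoproteins to Sel1l, had a log2 fold change of -0.02.

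The EDEM proteins, which trim mannose from glycoproteins and so mark them for ERAD, did not pass the test. Edem1 read 1041, 1436, 1435 and 1437 normalized counts alone and 1432, 1440, 1422 and 1408 with apoptotic cells. Apart from alone library 1 its libraries lay within a narrow band, and the log2 fold change of 0.11 became -0.01 (95% interval -0.08 to 0.06) without that library. Edem3 behaved likewise, with 0.04 and -0.02, and Edem2 stood at -0.05. The derlins, candidate channels for retrotranslocation, had log2 fold changes of -0.07 (Derl1), 0.02 (Derl2) and -0.21 (Derl3). Derl3 was barely above the filter, with 5.07 to 13.4 normalized counts alone and 5.93 to 14.3 in co-culture. Its interval ran from -1.002 to 0.591, so a change inside that range could not be told from none.

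In the Sec61 channel, through which proteins enter the ER, the pore subunit Sec61a1 had means of 6624 ± 65.1 and 6455 ± 162 normalized counts (log2 fold change -0.04). The small subunit Sec61b read 3631, 2755, 3047 and 2747 alone and 2684, 2819, 2544 and 2800 in co-culture. The groups overlapped, and the log2 fold change of -0.16 (limma adjusted p = 0.241) was -0.07 without alone library 1. Neither gene passed the threshold.

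Log2 ratios of 2 genes within a library, which do not depend on the size factors, are given for 6 pairs as a description, with no test, because the pairs were chosen after their values were seen and restate the changes above. From libraries alone to co-cultures the mean ratio of Herpud1 to Hspa5 differed by -0.33 and that of Dnajb9 to Hspa5 by -0.22. The ratio of Ern1 differed by 0.46 to Xbp1, by 0.51 to Eif2ak3 and by 0.23 to Atf6 (0.31 without alone library 1). Ppp1r15a against Eif2ak3 differed by -0.16. The groups did not overlap in the ratios of Herpud1 and Dnajb9 to Hspa5 and of Ern1 to Xbp1 and Eif2ak3, and overlapped in the other 2.

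Small differences leaned downwards. Of the 37 genes, 27 had a negative log2 fold change (73.0%, beside 49.6% of all tested genes), and without alone library 1 this was 28 of 36, with a median of -0.03 beside -0.002 for all genes. The groups did not overlap in 11 of the 37 genes (29.7%), which is 21.2% over all tested genes. In 8 of these the co-cultures were lower (Hspa5, Creld2, Dnajb9, Calr, Pdia4, Ppib, Ppp1r15a and Herpud1), 21.6% beside 9.72% of all tested genes, and in 3 they were higher (Ern1, Atf6 and Vcp), 8.11% beside 11.4% of all tested genes. The genes share libraries and are not independent, and these shares were not tested.

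Libraries of a group differed mainly through alone library 1. The median coefficient of variation of the 37 genes was 5.91% among libraries alone, 2.13% among libraries alone without library 1, and 1.95% among co-cultures. In alone library 1 the genes split: 20 of 37 had their highest value of the group there and 13 their lowest. Compared with the mean of alone libraries 2 to 4, it was lower in Atf6 (-0.63 on the log2 scale), Edem1 (-0.46), Ern1 (-0.31), Edem3 (-0.27), Sel1l (-0.20) and Eif2ak3 (-0.18). It was higher in Sec61b (0.35), Sdf2l1 (0.31), Manf (0.30), Ppp1r15a (0.28), Pdia6 (0.21) and Pdia5 (0.20). Genes of the same role did not all share this: Edem2 stood at -0.06, and among the isomerases P4hb at -0.001 and Pdia4 at 0.04.

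**Figure D3:**
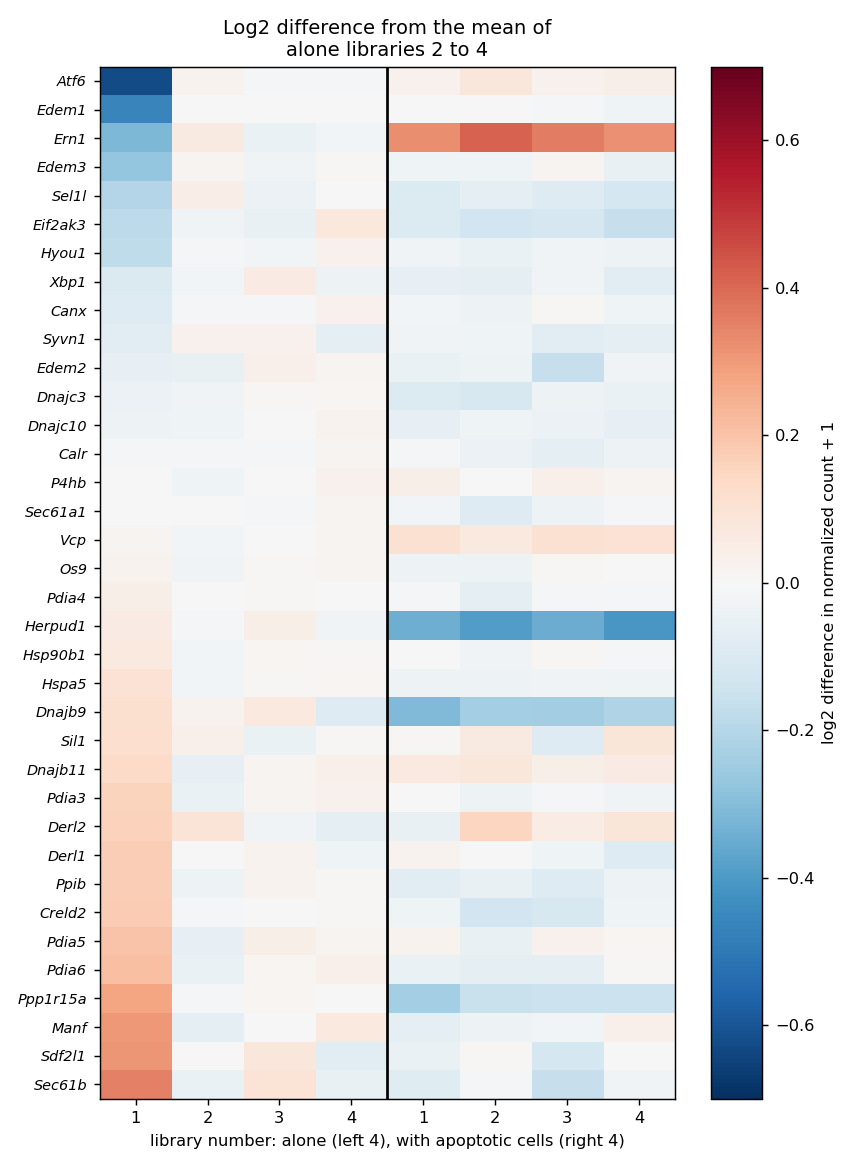
Log2 difference of each library from the mean of alone libraries 2 to 4 for 36 of the genes (Derl3, with few reads, is not shown), ordered by alone library 1, with red higher and blue lower. Alone library 1 runs from -0.63 in Atf6 to 0.35 in Sec61b, while in the co-cultures mainly Ern1, Herpud1, Dnajb9 and Ppp1r15a stand out in all 4 libraries.

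Other genes of the ER, or linked to its stress signalling and calcium store, were examined in 9 lists, which hold 203 further tested genes. Of these, 12 rose and 16 fell (13.8% called, beside 11.7% of all tested genes). Most of the falls were in the list of the PERK, ATF4 and CHOP arm, in which 9 of 20 tested genes fell (6 to 10 over left-out libraries) and 1 rose, with a median log2 fold change of -0.20. That list was drawn up with falls of some of its genes already known, so its count is no independent evidence of a direction. Trib3, a pseudokinase induced by ATF4 and CHOP, read 868.8, 838.7, 871.8 and 795.3 normalized counts alone and 372.3, 451.2, 388 and 425.6 in co-culture. Its groups were widely separated (log2 fold change -1.04, SE 0.07, limma adjusted p = 1.12e-05). Atf4, the transcription factor of this arm, fell from 6972 to 4669 (mean normalized counts, log2 fold change -0.57), Ddit3, which encodes CHOP, from 810.0 to 612.9 (-0.40), and the stress gene Nupr1 from 1609 to 984.7 (-0.71). Eif2b5, a subunit of the exchange factor that phosphorylated eIF2-alpha inhibits, was the gene that rose (0.18), and was named after its value was seen.

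In the list of other unfolded protein response signalling genes, 1 of 21 rose and 1 fell. Creb3l1, an ER membrane transcription factor related to ATF6 and known for its role in collagen secretion, went from 1176, 1415, 1379 and 1474 to 1723, 1692, 1720 and 1667 normalized counts. The groups did not overlap (log2 fold change 0.33, SE 0.06, limma adjusted p = 0.00869). Traf2, an adaptor that binds activated IRE1-alpha, fell (-0.16, limma adjusted p = 0.0262). That call was lost without alone library 3 or without co-culture 2, 3 or 4 (adjusted p = 0.0656 to 0.0849).

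Of 12 genes of the ER calcium store, 2 rose and none fell. They were Itpr3, an inositol trisphosphate receptor that releases calcium from the ER (0.37, SE 0.08, limma adjusted p = 0.0122), and Orai1, the plasma membrane channel that refills the store (0.20, limma adjusted p = 0.0378). The Orai1 call was lost without any 1 library other than alone library 1, with the replicate block (adjusted p = 0.0781) and with no filter (0.0503). Without alone library 1, 6 genes of this list rose, where 13.4% of all tested genes did.

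In the other ERAD list, 4 of 37 genes rose and 3 fell. Faf2, a membrane protein that recruits p97 (0.16), and the ERAD ubiquitin ligase Tmem129 (0.13) had the smallest p among them. These counts rested on the libraries kept, at 8 and 6 without alone library 1, at 2 and 2 without alone library 4, and at 0 or 1 higher and 0 lower without alone library 3 or any 1 co-culture. With the replicate block they were 0 and 0. Over all tested genes, 13.4% rose and 12.5% fell without alone library 1. Of 22 genes for translocation and signal peptide handling, Sec61a2, an alternative Sec61 pore subunit, rose (0.19) and Ssr3, of the translocon-associated protein complex, fell (-0.11).

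Of 24 genes for N-glycosylation and the calnexin cycle, only Alg6, a glucosyltransferase of the lipid-linked oligosaccharide, passed the limma threshold (-0.22, SE 0.04, adjusted p = 0.00594). Among 30 further folding enzymes, Cnpy4 (0.25) and Dnajc1 (0.25, named after its value was seen) rose and Fkbp14, a collagen-related prolyl isomerase, fell (-0.14). Among 32 genes of ER to Golgi transport, only Preb, which encodes the SAR1 exchange factor SEC12, rose (0.13). Of 5 ER-phagy receptors tested none passed the limma threshold, nor by edgeR or DESeq2. In limma 2 had an unadjusted p under 0.05, as did 26.5% of all tested genes. With a filter at a mean of 100, 1 receptor was lower, and with array weights 2 were. Without alone library 1, 1 was higher and 2 lower, where 13.4% and 12.5% of all tested genes were. The calls of Sec61a2, Ssr3, Cnpy4, Fkbp14, Tmem129 and Preb were each lost with the replicate block and in 5 to 7 of the 8 comparisons that leave out 1 library. Each was lost without alone library 3 or co-culture 2, 3 or 4, all but Cnpy4 also without co-culture 1, Sec61a2, Cnpy4 and Preb without alone library 2, and Sec61a2, Ssr3, Fkbp14 and Preb without alone library 4. That of Ssr3 was also lost with no filter (adjusted p = 0.068) and that of Preb under TMM scaling (0.0504). The call of Dnajc1 was lost in 10 of 17 alternatives: with no filter, with the block, by DESeq2 and without any 1 library other than alone library 4 (adjusted p = 0.0505 to 0.122). That of Faf2 was lost with the block and without co-culture 3 or 4. The calls of Alg6 and Eif2b5 held in all 17 alternatives.

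**Figure D4:**
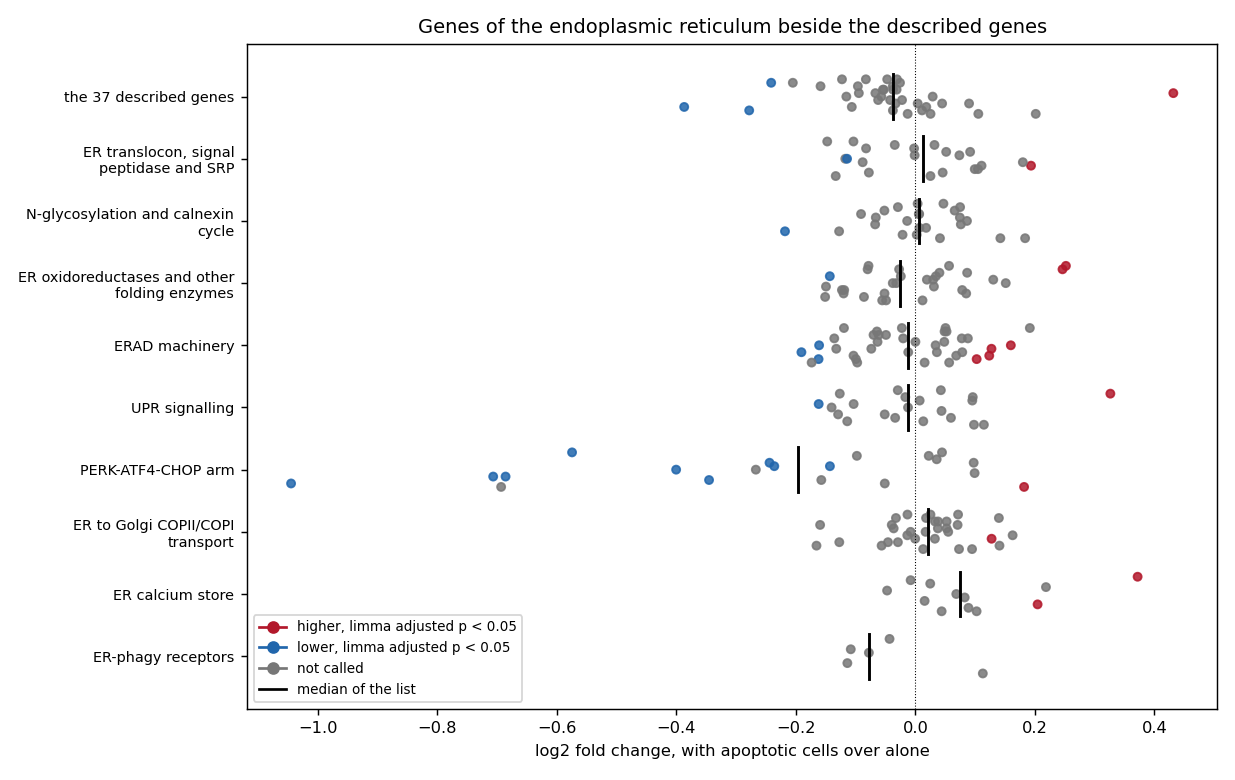
Log2 fold change of each tested gene (points) in the 37 described genes and in 9 lists of other genes of the ER or linked to it. Colour marks genes past the limma threshold, and a black line the median of each list. The PERK, ATF4 and CHOP list has a median of -0.20 and reaches -1.04 (Trib3), while the medians of the described genes (-0.04) and of the lists for translocation, N-glycosylation and transport (0.01, 0.01 and 0.02) lie close to 0.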

How the data were processed

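The authors deposited 1 table with 8 columns of normalized signal, in which each library holds whole counts scaled by a size factor (100% of values whole within 0.01 reads). It also holds the authors' log2 fold changes, test scores and p-values, per the file headers, of which only the adjusted p was used. FastQC, STAR, featureCounts and DESeq2 are named in the submitters' processing notes; the sources used here give no build, annotation or strand setting. Reads fitting hamster and human sequence alike may be counted under a hamster gene.

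Columns were matched to samples by number and the letters AC. A row without a name (0.14 to 0.176% of reads) was left out. limma 3.58.1 (R 4.3.3, trend) was fitted, for genes averaging 10 or more, to log2(normalized count + 1) with group as the only term and Benjamini-Hochberg adjustment over all genes at 0.05. Such a scale understates changes of low genes. Alternatives were a pseudocount of 10, a filter at 100 or none, TMM scaling, a replicate block, array weights, each library left out, and edgeR 4.0.16 (TMM or median-of-ratios factors, the latter added after seeing the data) and DESeq2 1.42.0 on the recovered reads. The fit was tested on simulated data with changes placed in genes averaging 100 or more and no outlying library like alone library 1. There it recovered 52.2% of 1.2-fold and 98.5% of 1.5-fold changes, so a small change could be missed. Figures were drawn with matplotlib 3.10.9.

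The members and lists were chosen with earlier results of these data known. Library values are given for called members and 6 fixed genes (Hspa5, Hsp90b1, Ern1, Xbp1, Atf6, Eif2ak3), and for further members chosen after their values were seen; from each other list the 2 called genes with the smallest p are named, with Atf4, Ddit3 and Trib3. Promoter and protein sequences were not used here.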

Additional observations from a re-analysis of the deposited data

Results flagged for a closer look

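In groups of 4 libraries, 11 values lay far from the other 3 of their group by Dixon's criterion, among 110 groups of named genes examined, where chance flags about 1 in 20. Of these, 5 were in alone library 1: Creld2 at 2984 normalized counts (others 2621 to 2650), Atf6 at 1337 (2046 to 2103), Ppp1r15a at 1414 (1154 to 1176), Edem1 at 1041 (1435 to 1437) and Edem3 at 3860 (4581 to 4716). Alone library 3 held Derl3 at 5.07 (12.3 to 13.4). Co-culture 1 held Ppp1r15a at 990.6 (1048 to 1053). Co-culture 2 held Pdia4 at 7450 (7736 to 7756) and Vcp at 22830 (23350 to 23450). Co-culture 3 held Edem2 at 1773 (1919 to 1948) and Preb at 1751 (1798 to 1800).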

How the results depend on the processing

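Herpud1, Dnajb9 and Ern1 kept their direction and their call in all 17 alternatives, with log2 fold changes of -0.40 to -0.37, -0.32 to -0.25 and 0.35 to 0.48. The count of members that rose, 1, became 2 with a filter at a mean of 100, with array weights, by DESeq2 and without alone library 1 (range 1 to 2 over left-out libraries). The 3 that fell became 6 with array weights, and ranged from 2 to 5 over left-out libraries. The members' median log2 fold change ran from -0.04 to -0.03. Over all genes, 858 rises and 716 falls became 498 and 400 with the replicate block and 1804 and 1674 with array weights, and ranged from 416 to 1811 and from 356 to 1694 over left-out libraries. Correlations of deviations between same-numbered libraries were -0.03, 0.18, 0.12 and -0.26. Libraries of different number were not compared, so these values cannot show whether replicate numbers pair the libraries. With the block 1 member rose and 2 fell.

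Directions turned in members not called with all libraries (ranges are over left-out libraries): Hyou1 with array weights (-0.028) and without alone library 1 (-0.033, up to 0.036), Sil1 with array weights (0.024) and without alone library 1 (0.016) or co-culture 3 (0.022, down to -0.037), and Dnajb11 without alone library 2 (-0.001, up to 0.063). Canx turned under TMM scaling (-0.002), with array weights (-0.019) and without alone library 1 (-0.019) or co-culture 3 (-0.006, up to 0.021). Without alone library 1 so did Pdia5 (0.002, down to -0.083), Edem1 (-0.011, up to 0.144) and Edem3 (-0.023, up to 0.073), the last also with array weights (-0.014). Derl2 turned without alone library 3 (-0.004), alone library 4 (-0.016) or co-culture 2 (-0.012, up to 0.059). The cause was not tested. Counts in the 9 other lists, in each direction, moved by over 1.5 times, or to or from 0, in 103 of 306 comparisons. Derl3, with few reads, could not be tested in 5 of the 17 alternatives.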
